A study of Drosophila melanogaster with 8 samples.

Results

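In the heads of adult flies, 93 of 6731 tested genes had transcripts whose level went up in steps from 18°C to 25°C and again from 25°C to 29°C. The largest group among them was made of 27 ribosomal protein genes, between 1.8-fold and 2.79-fold higher at 29°C than at 18°C. After quantile normalization, which gives all libraries the same distribution of values, 3 of the 27 still met the criteria for this set. With each library centred on genes of like length, 11 of the 27 did. On the log2(scaled value + 1) scale the largest difference was that of the antimicrobial peptide gene DptB (4.67), whose mean was 35.0-fold higher at 29°C, or 20.7-fold without the library of 29°C ZT15. Translation factors, a metallothionein, odorant binding proteins and many genes without a name made up the rest.

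The libraries were made from polyA+ RNA of heads of Canton-S, a wild-type strain of Drosophila melanogaster. Flies had been kept at 18°C (3 libraries, from ZT3, ZT15 and ZT23), 25°C (2 libraries, from ZT3 and ZT15) or 29°C (3 libraries, from ZT3, ZT15 and ZT23), where ZT counts the hours from lights on. No mutation, transgene or drug was involved in any group, and neither the sex and age of the flies nor the number of heads per library is given in the sources used here. The time points follow the sample labels; the methods of the study give ZT21 in place of ZT23. Each combination of temperature and time point was sequenced as 1 library, so the spread within a temperature includes changes over the day, and nothing says that the libraries came from separate cultures of flies.

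Members were chosen from the measured values themselves. The deposited values are mean coverages of the transcripts, per base of their length, and the values of a library were brought to a common sum of 1000000. Differences were taken between the mean log2(scaled value + 1) of the temperatures, a scale that understates the change of low transcripts. A gene was a member if its mean scaled value was at least 5, if both steps were at least 0.4 on the log2 scale and if every 29°C library lay above every 18°C library. All differences between temperatures given here are therefore descriptions of what the rule picked, with no test. The gene lists were chosen with earlier results of these data known, so shares of members on a list are descriptions too. Of the tested genes, 1.38% met the whole rule, 22.3% had every 29°C library above every 18°C library, 5.85% had a first step of at least 0.4 and 13% a second step of at least 0.4. The mirrored rule, with steps down, was met by 167 genes.

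Ribosomal proteins are the building blocks of the machine that makes all proteins, and their genes are usually expressed together and at very high levels. Antimicrobial peptides are short secreted proteins that kill or hold back microbes. In flies they are made largely by the fat body, including that of the head, and are switched on by the Imd and Toll pathways. The classical response of flies to heat is a separate program, the induction of heat shock proteins that help other proteins to fold.

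Over the 93 members, the median first step was 0.546 and the median second step 0.573, beside medians of -0.115 and 0.0983 over all tested genes. The first step was the larger in 48 members and the second in 45. Since the second step spans fewer degrees, 86 members were steeper per degree above 25°C than below it. The total difference between 18°C and 29°C had a median of 1.10 and ran from 0.829 to 4.67. It reached 1 or more in 67 members and 2 or more in 9. In 79 members the libraries of all 3 temperatures were apart, with both 25°C libraries between the others. The order 18°C, 25°C, 29°C was seen at ZT3 in 91 members and at ZT15 in all 93. Like the 79, these counts are favoured by the rule, and they were not taken over all tested genes.

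**Figure D1:**
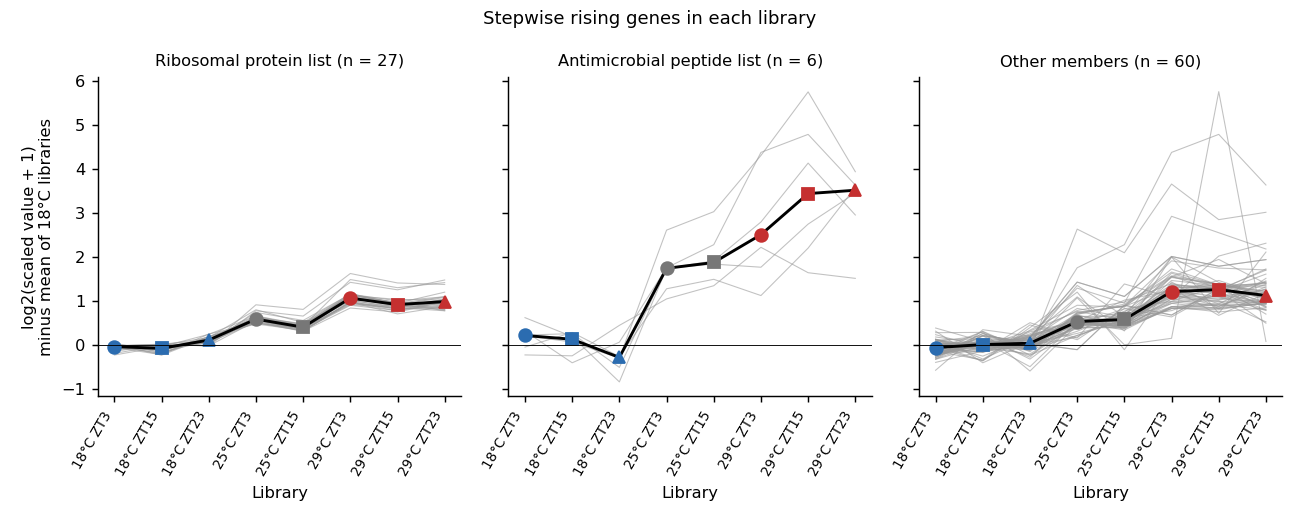
Difference of each member from its own mean at 18°C, as log2(scaled value + 1), in each of the 8 libraries, for the 27 ribosomal, the 6 antimicrobial and the 60 other members. Grey lines are genes and the black line with coloured symbols is the median (blue 18°C, grey 25°C, red 29°C; circles ZT3, squares ZT15, triangles ZT23). The ribosomal lines run close together near a total difference of 0.973, the antimicrobial lines spread widely, and the single spike among the others at 29°C ZT15 is CG10911.

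The members are not 93 independent measurements. CG10332 and IM18 have the same value in every library, as do CG17325 and CG42305, so there are 91 distinct patterns. primo-1 and primo-2 share exons, as do inaF-A and inaF-C. In the BDGP6 annotation 44 members overlap an exon of another gene, and strand was not stated for the averaging, so reads of such neighbours cannot be told apart. Of the 27 members with more than 1 tested transcript, all tested transcripts met the rule in 25. The exceptions were RpL3 (3 of 5) and RpL5 (2 of 5). The mean of 17 members at 18°C was under 5, and 11 members passed the filter on low values only through their 29°C libraries. Among the 11 were AttA, CG9377, CG14221 and CG10911.

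The library at 29°C ZT15 stood apart from the rest in markers of other tissues. The summed level of 8 listed midgut markers was 770 there and between 3.71 and 6.42 in the other libraries. Those of 16 accessory gland and ejaculatory bulb markers (809 against 96.2 to 287), 13 testis markers (69.7 against 5.31 to 8.50) and 13 ovary markers (83.8 against 22.0 to 27.4) were also highest there. Markers that define the head were present in every library: 7 photoreceptor markers summed to between 13790 and 18840 at 18°C and 25°C and to between 22760 and 27900 at 29°C, and 5 neuronal and glial markers to between 272 and 559. The sum of 7 fat body markers was 48610 and 44420 at 25°C, between 14040 and 20410 at 18°C and between 10290 and 17120 at 29°C, so it did not rise in steps. A sum follows its most abundant genes, so it does not measure the amount of fat body. None of these marker genes was a member. In whole heads, more RNA per cell and more cells of a type cannot be told apart. Without the 29°C ZT15 library, 87 of the 93 members still met the rule. The 6 lost were CG10911, CG14615, CG7607, Cyp40, mora and shf.

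The 6 antimicrobial members had a median total difference of 2.98 on the log2(scaled value + 1) scale, against 0.973 in the ribosomal and 1.19 in the other 60 members. Of 18 tested genes on the antimicrobial list 6 were members (33.3%, against 1.38% of all tested genes). The list was chosen with earlier results of these data known, so this share is a description. In 11 of the 18 every 29°C library lay above every 18°C library, against 22.3% of all tested genes. The median total difference of the list was 0.818. DptB encodes diptericin B, an antibacterial peptide under the Imd pathway. Its scaled values at ZT3, ZT15 and ZT23 were 5.88, 5.25 and 3.84 at 18°C, then 35.3 and 47.5 at ZT3 and ZT15 of 25°C, and 116, 318 and 90.0 at 29°C. The 3 temperatures were fully apart, with steps of 2.82 and 1.84. IM18, an immune-induced molecule, had 5.51, 2.96 and 4.48 at 18°C, 16.7 and 24.4 at 25°C, and 107, 143 and 63.9 at 29°C. It is the same locus as CG10332 and had steps of 2.02 and 2.25, again without overlap between temperatures.

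The attacins are longer antibacterial proteins, also under Imd. AttC had 5.75, 5.90 and 3.06 at 18°C, 18.3 and 20.7 at 25°C, and 38.9, 99.9 and 43.6 at 29°C, a total difference of 3.30. AttB had 11.9, 8.61 and 3.71 at 18°C, 27.1 and 29.0 at 25°C, and 27.6, 55.3 and 90.7 at 29°C. AttA was low throughout, with 0.769, 1.23 and 0.523 at 18°C, 3.42 and 4.14 at 25°C, and 2.98, 7.39 and 20.8 at 29°C. In AttB and AttA the lowest 29°C library, ZT3, lay among or below the 25°C libraries, so the second step came from ZT15 and ZT23. AttA and AttB lie within 50 kb of each other on arm 2R and are near-identical copies, so the split of reads between them is uncertain.

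BomBc3 was the most abundant of the antimicrobial members. It belongs to the bomanins, short peptides under the Toll pathway. Its values were 72.6, 71.5 and 116 at 18°C, 177 and 217 at 25°C, and 399, 267 and 244 at 29°C, a 3.50-fold difference without overlap. The other 10 tested bomanins were not members, and in 9 of the 11 the first step was the larger. BomS6, for example, had 1454, 1205 and 1860 at 18°C and was level between 25°C (2545 and 2680) and 29°C (2557, 2563 and 2676). BomS4 was lower at 29°C than at 25°C, with a second step of -0.494. The cecropin gene CecA1 had both steps (0.971 and 1.28) and missed the rule only because its 29°C ZT3 value of 4.39 was below its 18°C ZT3 value of 4.46.

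The time of the highest value differed between the antimicrobial members. DptB, IM18 and AttC peaked at 29°C ZT15, the library with the markers of other tissues, AttA and AttB at 29°C ZT23, and BomBc3 at 29°C ZT3. Without 29°C ZT15 all 6 still met the rule, and the total difference was 4.12 for DptB (4.67 with it), 4.01 for IM18 (4.27) and 2.88 for AttC (3.30). Of 28 tested genes on the list of immune recognition and signalling 0 were members, a count that does not stand out beside the 1.38% of all genes. Of these 28, 4 had every 29°C library above every 18°C library, against 22.3% of all tested genes. The median total difference of the list was -0.0412. The largest differences on this list were those of PGRP-SB1 (0.70), PGRP-LB (0.66) and the kinase pll (0.58), all without overlap between 18°C and 29°C. PGRP-SB1 differed at the first step only, with a second step of -0.08. Rel, the transcription factor of the Imd pathway, had between 37.4 and 39.2 at 18°C and between 35.6 and 38.9 at 29°C. PGRP-LC, a receptor of that pathway, differed by -0.024. TotA and TotC, secreted proteins known to be induced by stress, were higher at 25°C than at 18°C (0.81 and 0.27) and far lower at 29°C, with total differences of -2.22 and -2.47, while vir-1 of the same list had a total difference of 0.72 without overlap.

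**Figure D2:**
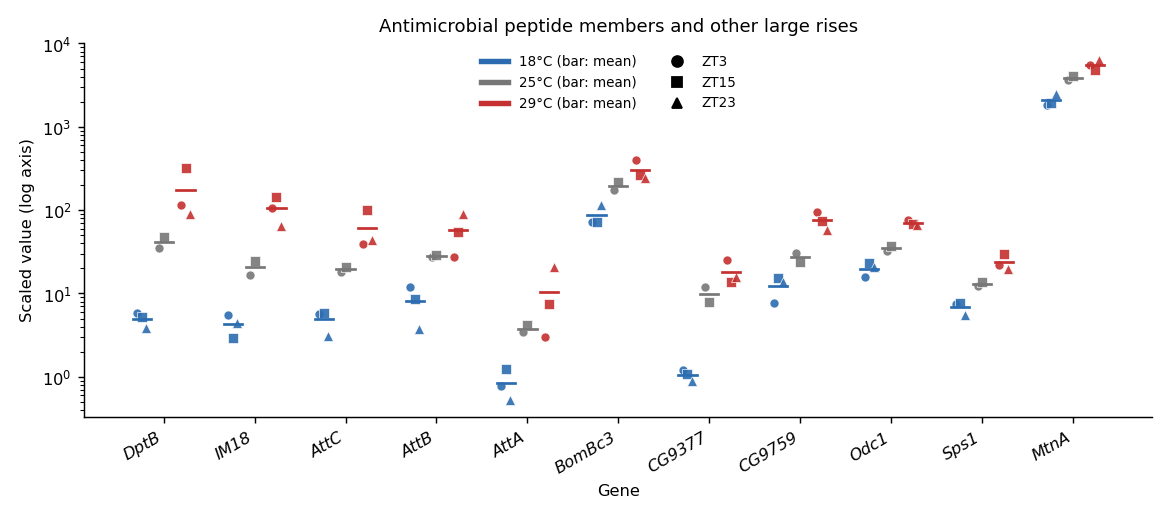
Scaled values (log axis) of the 6 antimicrobial members and of 5 other members in each library. Symbols are libraries (circle ZT3, square ZT15, triangle ZT23), colours are temperatures and bars are means. Values of DptB run from 3.84 to 318, while MtnA lies far higher, between 1848 and 2493 at 18°C and between 4863 and 6381 at 29°C.

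The ribosomal protein genes formed the most even group. Of 83 tested genes on the list, also chosen with earlier results known, 27 were members (32.5%, against 1.38% of all tested genes). In 79 of the 83 every 29°C library lay above every 18°C library, against 22.3% of all tested genes. Both steps were above 0 in 81, against 1439 of all 6731 tested genes. The scaled values of the 83 genes summed to 81680, 77340 and 86890 at ZT3, ZT15 and ZT23 of 18°C, to 118400 and 104500 at 25°C, and to 152100, 137300 and 141300 at 29°C, so the sums were apart at all 3 temperatures. The median total difference was 0.973 (range 0.854 to 1.48) in the 27 members and 0.744 in the other 56 genes. The members are the upper end of this list, since the thresholds of the rule run through it. Of the 56, 28 missed only the second step, 6 only the first and 18 both.

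RpS20, a protein of the small subunit, had the largest total difference of the ribosomal members. Its values were 793, 811 and 795 at 18°C, 1514 and 1408 at 25°C, and 2477, 2135 and 2084 at 29°C, a 2.79-fold difference. sta, the fly homologue of the small subunit protein RPSA, had 717, 732 and 714 at 18°C, 1244 and 1144 at 25°C, and 1946, 1729 and 2018 at 29°C. RpL36 of the large subunit was the most abundant ribosomal member, with 1603, 1347 and 1800 at 18°C, 2376 and 2027 at 25°C, and 3306, 3011 and 2969 at 29°C. RpL32, often used as a reference gene in qRT-PCR of flies, had 1231, 1172 and 1368 at 18°C, 1819 and 1647 at 25°C, and 2771, 2457 and 2412 at 29°C. In these libraries it was 2.03-fold higher at 29°C than at 18°C.

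The remaining ribosomal members had folds between 1.80 and 2.14, apart from RpL24-like (2.65-fold), which encodes a factor of ribosome assembly. From the small subunit they included RpS6, RpS9, RpS12, RpS15, RpS23 and RpS27. From the large subunit they were RpL3, RpL5, RpL7, RpL12, RpL22, RpL23A, RpL26, RpL27, RpL27A, RpL28, RpL31, RpL34b, RpL35, RpL36A and RpL37-1. The spread between time points was small, with a median SD on the log2 scale of 0.114 at 18°C and 0.109 at 29°C, against 0.211 and 0.227 for the other members. Within a temperature most ribosomal members ranked the libraries alike. At 25°C all 27 were higher at ZT3 than at ZT15, against 30 of the 60 other members. At 29°C ZT3 was the highest library in 20 and ZT15 in 0, against 25 and 14 of the 60. At 18°C ZT23 was the highest in 24, against 23 of the 60. These directions were not counted over all tested genes, and a shift of whole libraries was not tested. The membership of the ribosomal genes leaned on the scaling. After quantile normalization, which gives all libraries the same distribution of values, 3 of the 27 met the rule. The median steps of the whole list were then 0.268 and 0.128 in place of 0.443 and 0.379. Without the 25°C library from ZT3 or from ZT15, 17 and 11 of the 27 met the rule.

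Only 4 genes on the ribosomal list had overlapping libraries at 18°C and 29°C. RpL38 went up and then down, with values between 1290 and 1485 at 18°C, 1941 and 1836 at 25°C, and 1741, 1630 and 1105 at 29°C. RpS3A had between 1039 and 1120 at 18°C and 1481, 1397 and 1066 at 29°C. RpLP0-like was low, between 8.28 and 13.0 in all libraries. RpS5b was low except at 29°C ZT15, with values between 0.439 and 0.931 at 18°C, 3.52 and 2.71 at 25°C, and 1.25, 54.0 and 0.553 at 29°C.

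**Figure D3:**
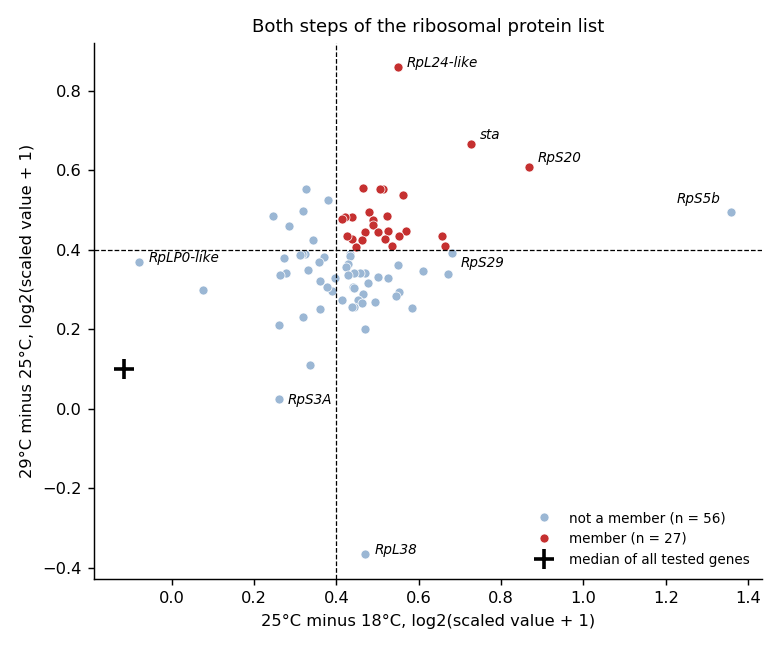
First step (horizontal, 25°C minus 18°C) against second step (vertical, 29°C minus 25°C) of the 83 tested genes on the ribosomal protein list, as differences of log2(scaled value + 1). Red points are the 27 members, blue points the other 56, dashed lines the threshold of 0.4 and the cross the median of all tested genes. Nearly all points lie above 0 on both axes, with RpL38 below 0 on the second and RpLP0-like below 0 on the first.

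Some other members have roles in protein synthesis. No list of such genes was tested, and they were named after their values were seen. Rack1, a scaffold on the small ribosomal subunit, had 794, 845 and 761 at 18°C, 1273 and 1152 at 25°C, and 1757, 1591 and 1636 at 29°C, close to the ribosomal proteins in level and fold (2.08). Members of initiation factor 3 were eIF3m, eIF3h and eIF3l, with 2.58-fold, 2.19-fold and 1.89-fold differences. eIF3m, the steepest, had 51.5, 64.7 and 66.4 at 18°C, 109 and 94.8 at 25°C, and 159, 147 and 164 at 29°C. eEF1beta, which reloads the elongation factor with GTP, and Nacalpha, which binds new chains as they leave the ribosome, were 1.93-fold and 1.84-fold higher. Non1, a nucleolar GTPase of ribosome assembly, had 131, 173 and 190 at 18°C, 244 and 241 at 25°C, and 415, 394 and 534 at 29°C. Polr3G, a subunit of the polymerase that makes 5S rRNA and tRNA, was low, between 3.79 and 5.68 at 18°C and between 9.24 and 15.1 at 29°C. In all of these the 3 temperatures did not overlap, as in 79 of the 93 members, a trait that the rule favours.

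MtnA had the highest level of all members. It encodes metallothionein A, a small protein that binds copper and other metals. Its values were 1848, 1952 and 2493 at 18°C, 3600 and 4116 at 25°C, and 5506, 4863 and 6381 at 29°C, a 2.66-fold difference. Of the 29 members with a mean scaled value of 500 or more, 26 were ribosomal and the others were MtnA, Rack1 and His4r. His4r, a histone H4 gene outside the histone cluster, had 564, 538 and 705 at 18°C, 843 and 807 at 25°C, and 1159, 1068 and 1156 at 29°C.

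Several members of low level encode enzymes of small-molecule metabolism. Odc1, ornithine decarboxylase of polyamine synthesis, had 15.7, 22.9 and 20.9 at 18°C, 32.7 and 37.2 at 25°C, and 76.7, 68.5 and 66.4 at 29°C. Sps1, a selenophosphate synthetase-like protein, had 7.56, 7.77 and 5.55 at 18°C, 12.1 and 13.6 at 25°C, and 22.2, 29.5 and 19.8 at 29°C. The 68 tested detoxification genes had a median total difference of -0.281. GstD9, a glutathione transferase, was the single member among them (1.47%, near the 1.38% of all tested genes). It had 6.72, 8.22 and 8.03 at 18°C, 21.2 and 12.6 at 25°C, and 33.7, 22.2 and 17.5 at 29°C, and its 25°C ZT3 value lay above its 29°C ZT23 value. Jabba, which anchors histones on lipid droplets, was 2.27-fold higher.

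Some of the steepest members are known by number only. CG9377, listed in RefSeq under the synonym c-SPH166, had 1.20, 1.08 and 0.901 at 18°C, 11.8 and 7.83 at 25°C, and 25.0, 13.9 and 15.7 at 29°C. CG9759 had 7.64, 15.4 and 13.8 at 18°C, 30.4 and 23.8 at 25°C, and 96.3, 74.1 and 57.2 at 29°C. Both had fully separate temperatures, like 79 of the 93 members. CG17325, which shares its values with CG42305, had 42.6, 48.8 and 55.1 at 18°C, 133 and 106 at 25°C, and 200, 171 and 190 at 29°C. CG14221 was lower and more scattered, with 1.47, 1.95 and 3.60 at 18°C, 2.61 and 7.46 at 25°C, and 5.83, 12.1 and 15.1 at 29°C.

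The other members without a group were mostly low. HP4, a protein of heterochromatin, had 8.92, 8.99 and 8.03 at 18°C, 12.8 and 14.2 at 25°C, and 20.8, 23.4 and 16.7 at 29°C. shf, a secreted protein of Hedgehog signalling, had 11.8, 12.6 and 12.9 at 18°C, 15.2 and 18.7 at 25°C, and 25.8, 25.9 and 18.4 at 29°C, so its 29°C ZT23 value fell just below a 25°C value. Zfrp8, a zinc finger protein studied in blood and germline stem cells, was the member with the smallest total difference, with 5.17, 4.99 and 4.94 at 18°C, 6.93 and 7.04 at 25°C, and 10.1, 9.21 and 9.89 at 29°C.

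Some unnamed genes lay at intermediate level. CG9689 had 19.3, 15.9 and 17.5 at 18°C, 28.2 and 28.2 at 25°C, and 44.7, 46.2 and 45.2 at 29°C. CG3308 had 60.6, 61.7 and 57.3 at 18°C, 81.6 and 95.5 at 25°C, and 128, 145 and 112 at 29°C. CG1416 (Aha1 in RefSeq) had 18.8, 19.6 and 17.6 at 18°C, 24.7 and 27.4 at 25°C, and 53.4, 49.1 and 36.8 at 29°C, with most of its difference above 25°C (0.794 of a total of 1.26). All 3 had separate temperatures, like 79 of the 93 members. primo-1, a small tyrosine phosphatase, had 13.3, 16.0 and 18.4 at 18°C, 24.5 and 23.4 at 25°C, and 35.5, 34.9 and 31.8 at 29°C, and primo-2, which shares its exons, had lower values with the same 2.14-fold difference.

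CG10911 was a member through 2 libraries. Its value was 53.8 at 29°C ZT15, 1.14 at 25°C ZT3 and at most 0.133 in the other 6 libraries. Without 29°C ZT15, where midgut and reproductive tract markers were high, its total difference was 0.124 in place of 2.00 and its second step -0.422, and it no longer met the rule. Without 25°C ZT3 its first step was 0.0137 in place of 0.546. Its neighbour CG5773, also a member, did not show this pattern and had 178, 140 and 112 at ZT3, ZT15 and ZT23 of 29°C.

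Odorant binding proteins are secreted around the sensory neurons of smell and taste. Of 21 tested genes of this family 2 were members (9.52%, against 1.38% of all tested genes), and the median total difference of the list was -0.00777. Obp19b had 9.35, 9.46 and 13.3 at 18°C, 15.9 and 22.6 at 25°C, and 26.5, 28.1 and 29.6 at 29°C. Obp56a had 28.6, 27.8 and 27.3 at 18°C, 35.1 and 48.5 at 25°C, and 61.7, 70.7 and 76.8 at 29°C. In both the 3 temperatures did not overlap, as in 79 of the 93 members. Obp19d and Obp56h, which missed the second step, had total differences of 1.28 and 1.27. Obp99a of the same family was far lower at 29°C (23.3 to 39.2) than at 18°C (124 to 328). Capa, the precursor of neuropeptides that act on water balance, was the single member among 22 tested neuropeptide genes (4.55%, against 1.38% of all). It had 16.2, 17.2 and 20.8 at 18°C, 25.5 and 25.7 at 25°C, and 45.1, 41.7 and 35.9 at 29°C.

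Of 15 tested genes on the list of heat shock proteins and chaperones 0 were members, a count too small to set beside the 1.38% of all genes. No Hsp70, Hsp26 or Hsp27 gene was among the 15, so none of those is described here. Of the 15, 10 had every 29°C library above every 18°C library, against 22.3% of all tested genes. Over the list the median first step was -0.0558 and the median second step 0.352. Hsc70-4, the main constitutive chaperone of this list, had 559, 601 and 633 at 18°C, 700 and 767 at 25°C, and 1233, 1207 and 1247 at 29°C. Its first step of 0.295 fell short of the rule. Hsp83, the fly Hsp90, had between 165 and 211 at 18°C and 25°C and 302, 315 and 219 at 29°C. Outside the list, 2 members carry chaperone synonyms in RefSeq, CG11267 (Hsp10) and CG1416 (Aha1), with 2.12-fold and 2.49-fold differences. Cyp40, a cyclophilin, was 2.01-fold higher.

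Other lists held no member, counts that do not stand out beside the 1.38% of all tested genes. The medians of the total difference were -0.908 for 30 proteasome genes, -1.06 for 27 cuticle protein genes and -0.843 for 22 muscle genes. They were -0.150 for 64 genes of oxidative phosphorylation, -0.117 for 13 clock genes, -0.0631 for 25 phototransduction genes, 0.179 for 15 genes of folding in the endoplasmic reticulum, -0.157 for 24 genes of transmitter receptors and channels and -0.223 for 7 genes of the JAK-STAT list. No proteasome or muscle gene had every 29°C library above every 18°C library, against 22.3% of all tested genes.

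Many genes lay close to the thresholds. Just inside the first step were Smyd3 (0.403), Zfrp8 (0.404) and inaF-C (0.404), and just outside it were Nop10 (0.394), CG11695 (0.387) and Tspo (0.385). Just inside the second step were Cyp40 (0.404), RpL5 (0.407) and eIF3l (0.408), and just outside it were CG31205 (0.397), RpS29 (0.392) and RpL17 (0.389). The first step alone kept out 450 genes, the second alone 179 and the order of the libraries alone 4 (CecA1, Acbp5, a10 and RpS5b). RpS29 of the small subunit, which missed the second step by little, had 1466, 1447 and 1502 at 18°C, 2492 and 2233 at 25°C, and 3252, 2914 and 3131 at 29°C.

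Members were short. The median annotated exonic length was 887 bp for ribosomal members and 1212 bp for other members, against 2249 bp for all tested genes, and the median coding lengths were 447, 652.5 and 1431 bp. Among genes outside the ribosomal list, 3.45% of those under 600 bp were members, 2.62% from 600 to 1000 bp, 1.74% from 1000 to 2000 bp, 0.275% from 2000 to 4000 bp and 0.0623% at 4000 bp or more. The level of all genes moved with length as well: the median first step of genes outside the ribosomal list was 0.0986 under 600 bp and -0.365 at 4000 bp or more, and the median second step was 0.0844 and 0.227. With each library centred on genes of like length, an alternative chosen after seeing the data, 77 genes met the rule, among them 63 of the 93, with all 6 antimicrobial but only 11 of the 27 ribosomal members. The part of length in these differences was not tested.

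**Figure D4:**
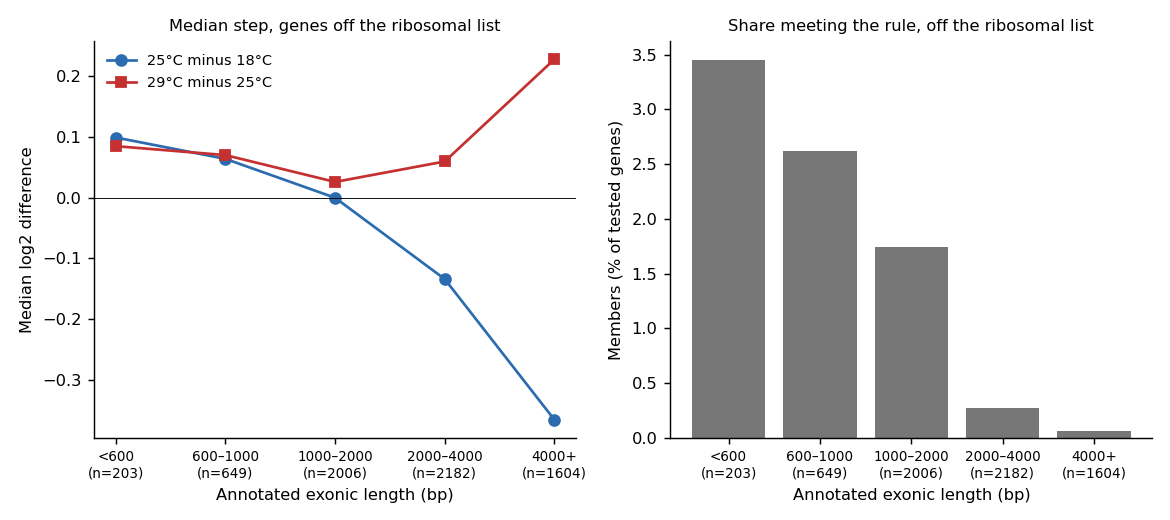
Genes outside the ribosomal list in 5 classes of annotated exonic length (bp, BDGP6, number of genes in brackets). Left, median difference of log2(scaled value + 1) for 25°C minus 18°C (blue) and 29°C minus 25°C (red). Right, percentage of tested genes that were members, which falls from 3.45% to 0.0623% with length while the blue line falls from 0.0986 to -0.365.

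Members lay on all large chromosome arms. Arm 2R held 28 members (30.1%, against 20.4% of all tested genes), 3R 20, X 17, 3L 15 and 2L 13, and none lay on chromosome 4, which had 71 tested genes. Of the 28 on 2R, 5 were antimicrobial. Along the arms 12 pairs of members lay within 50 kb of each other and no run of 3 was found. Besides gene copies such as AttA and AttB, the pairs joined unrelated genes, such as CG11267 and RpS12, or RpS27 and CG10513.

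Time of day was compared as a measure that the rule had not used. The order of the libraries that the rule asks for favours genes with little spread between time points. A smaller share of members than of all transcripts varying over the day is thus favoured by the rule and is not read as a result. limma was fitted to all 12577 tested transcripts with temperature and time point as factors, with Benjamini-Hochberg adjustment over all of them. Between ZT15 and ZT3, 0.0398% of transcripts were called higher and 0% lower. Between ZT23 and ZT3, 0% were called in either direction, and between ZT23 and ZT15, 0.374% were called higher and 3.39% lower. Of the 93 members, 0, 0 and 1 were called in the 3 comparisons by limma, and 11, 12 and 21 had an unadjusted p under 0.05 (11.8%, 12.9% and 22.6%, against 28%, 17.4% and 26.2% of all transcripts).

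The member that passed was CG11267 (Hsp10), which was lower at ZT23 than at ZT15 by -0.45 on the log2 scale (SE 0.09, limma adjusted p = 0.0469). It had 108 at ZT15 and 74.4 at ZT23 of 18°C, and 215 and 163 at 29°C, so it was lower at ZT23 in both. The number of members called there fell to 0 without the library of 18°C ZT3, 18°C ZT23, 25°C ZT3, 25°C ZT15, 29°C ZT15 or 29°C ZT23, and the adjusted p of CG11267 from limma lay between 0.0316 and 1 over all settings tried. Sps1 had a similar difference (-0.48, SE 0.11, limma adjusted p = 0.0579) that did not pass. inaF-A, from the locus needed for normal TRP channels in photoreceptors, had the largest values at ZT15 at each temperature: 96.7, 138 and 122 at ZT3, ZT15 and ZT23 of 18°C, 110 and 222 at 25°C, and 190, 289 and 252 at 29°C. Its difference of 0.71 between ZT15 and ZT3 (SE 0.11) was seen in 3 of 3 temperatures but did not pass after adjustment (limma adjusted p = 0.0745), and inaF-C, which shares exons with it, gave 0.70.

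CG10513 and Osi2, of the Osiris family, showed the opposite pattern, with their lowest value at ZT15 at each temperature. CG10513 had 11.1, 8.82 and 15.6 at 18°C, 28.0 and 10.7 at 25°C, and 33.0, 21.2 and 34.9 at 29°C. Osi2 had 10.5, 9.49 and 12.3 at 18°C, 24.1 and 13.7 at 25°C, and 46.0, 18.4 and 49.8 at 29°C. Their differences between ZT23 and ZT15 were 0.87 (SE 0.21, limma adjusted p = 0.0621) and 0.88 (SE 0.24, limma adjusted p = 0.0782), and neither passed. CG13965 (-0.53), the tetraspanin Tsp42Ek (-0.57), AttC (-0.89) and DptB (-1.05) were lower at ZT23 than at ZT15, with limma adjusted p between 0.0882 and 0.103. The ZT15 value at 29°C comes from the library with the markers of other tissues. Without that library the differences were -0.51 for each of AttC and DptB, 0.53 for Osi2 and 0.97 for CG10513.

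**Figure D5:**
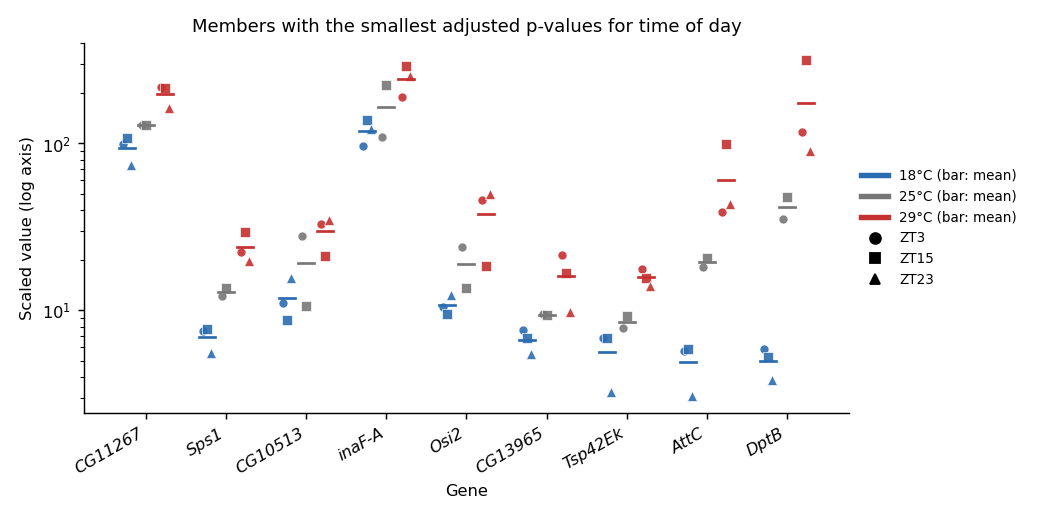
Scaled values (log axis) in each library of 9 of the 10 members with the smallest adjusted p for time of day (inaF-C, which shares exons with inaF-A, is left out). Symbols are time points (circle ZT3, square ZT15, triangle ZT23), colours are temperatures and bars are means. The squares of inaF-A lie on top at all 3 temperatures, and those of CG10513 and Osi2 at the bottom.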

How the data were processed

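Per the labels, polyA+ RNA of Canton-S heads was sequenced in 8 libraries, which were grouped by temperature. The authors aligned paired-end reads to dm3, and the deposited values are mean coverages of transcripts per base, a signal and not a count. Bowtie2, TopHat and Cufflinks are named in the submitters' processing notes, with roles and versions not given in the sources used here. Library sums lay between 92886 and 108550, the depth in reads is unknown, and so no counting error is given. The table has 56 unnamed columns with values in 99 rows, which were not used. It lists 18387 transcripts of 11500 genes, 274 of them at 0 in every library, and 11353 genes were matched to a symbol.

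Libraries were scaled to a sum of 1000000, and transcripts with a mean of at least 5 were kept (12577 of 6731 genes). The transcript with the highest mean stood for its gene. Time points were compared with limma 3.58.1 in R 4.3.3 (temperature and time as factors, adjusted p threshold 0.05). Plots and rule were made in Python 3.11.15 with pandas 2.3.3 and matplotlib 3.10.9. Lengths, arms and overlaps come from BDGP6 and RefSeq Release 6, whose coordinates are not printed, since the files use dm3. Promoter and protein sequences were not analysed here.

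The members and the gene lists were chosen with earlier results of these data known. Genes named are the 12 members with the largest total difference, the 10 with the highest mean, members on the lists, the 10 with the smallest adjusted p for time, the 3 nearest to each threshold on either side and runs of 3 or more members within 50 kb. 1 named gene is not reported here. Others were named after their values were seen. Alternatives were other pseudocounts, filters, scalings, steps and model terms, and leaving out each library in turn. The time test was tested on simulated data.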

Additional observations from a re-analysis of the deposited data

How the results depend on the processing

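The number of members was 145 after scaling to the 75th percentile, 189 with a step of 0.3 and 44 with a step of 0.5 (93 in the report), and between 78 and 106 with each library left out. Of the 93, 78 remained after 75th percentile scaling and 60 after quantile normalization, where 3 of the 27 ribosomal but all 6 antimicrobial members remained. With the ZT3 and ZT15 libraries only, which all temperatures share, 119 genes met the rule. Among them were 76 of the 93 members and 24 of the 27 ribosomal ones. The 6 antimicrobial members remained in every setting except the one with ZT3 and ZT15 only and those without 29°C replicate 1 (ZT3) or 3 (ZT23), where 5 did. Both steps of all 93 stayed above 0 under the scalings tried. Scaling to the 75th percentile moved the median first step of all genes from -0.115 to 0.105. Without 25°C replicate 1 (ZT3) or 2 (ZT15), 69 and 59 of the 93 remained.

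For ZT15 against ZT3, limma called 5 transcripts; it called 0 with a pseudocount of 0.1, a minimum mean of 1, no filter, temperature as a linear covariate or no temperature term, 31 with a pseudocount of 5, 43 with 75th percentile scaling, 11 with quantile normalization and 29 with a trend, and 0 to 42 with each library left out. For ZT23 against ZT3, limma called 0 (2184 at an unadjusted p under 0.05), and 0 to 10 with each library left out, the 10 without 29°C ZT15. For ZT23 against ZT15, 473 became 0 with a minimum mean of 1, no filter or no temperature term, 262 with 75th percentile scaling, 164 with quantile normalization, 119 with a linear covariate and 0 to 330 with each library left out (0 without 18°C ZT23, 25°C ZT3, 25°C ZT15, 29°C ZT15 or 29°C ZT23). The 1 member called there became 0 with a pseudocount of 0.1, a minimum mean of 1, no filter, 75th percentile scaling, quantile normalization, a linear covariate or no temperature term, 3 with a trend and 0 to 4 with each library left out. The causes were not tested. With 1 library left at 25°C, that library is taken up by its own temperature term and adds nothing to the time contrasts. Leaving out either 25°C library therefore gave the same fit with temperature as a factor. The time calls thus depend on the settings, and the time contrasts of the 10 members with the smallest adjusted p kept their sign in all of them. No paired analysis was possible because the labels give no replicate numbers. The time point, which temperatures share, is a term of the fit.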
